A study of Mus musculus with 8 samples.

Results

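Sox3, Sox11, Sox21, Nes, Fabp7, Zic1, Zic2, Zic4 and Zic5 are genes used as markers of neural progenitors, and their RNA levels were followed through the directed differentiation of mouse embryonic stem cells (ESCs) into spinal motor neurons. The 9 genes were taken by symbol from the 36808 genes of the expression table, with no threshold on their values, although the list was drawn up with earlier results of these data known. Each symbol occurred once, and no member was listed at 0 in any library. The study asked what Polycomb repressive complex 2 (PRC2), the enzyme complex that places the histone mark H3K27me3 on silent developmental genes, contributes to this differentiation.

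The 8 RNA libraries came from 5 cell lines, with 1 library for each line and stage. E14 wild-type cells (129/Ola background) were sampled as ESCs and at day 5 of differentiation. Suz12GT cells (129/Ola) carry a gene trap that leaves a fusion of SUZ12 with β-galactosidase and part of the H3K27me3, and were sampled at day 5. Suz12delta cells (C57/BL6), which make a truncated SUZ12, and Eednull cells (BALB/cR1), which carry a point mutation in Eed, have lost nearly all H3K27me3 and were sampled as ESCs and at day 5. CJ7 wild-type ESCs (129/S) were sequenced, per the label, alongside the library whose number belongs to the Eednull ESC column, as a wild-type control for that batch. ESCs were grown with LIF on irradiated mouse fibroblasts that were taken out by brief plating before use. For differentiation LIF was withdrawn, retinoic acid and a hedgehog agonist were added, and the day 5 cells were collected ahead of terminal differentiation. A Suz12GT ESC library was not analysed here. E14 and Suz12GT share a background, whereas in Suz12delta and Eednull the mutation cannot be told apart from the strain.

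Neural progenitors of the embryonic spinal cord are held in their dividing state by SoxB1 transcription factors. The SoxB2 factor Sox21 and the SoxC factor Sox11 accompany the move towards neurons. Zic proteins are zinc-finger factors of the dorsal neural tube and neural crest, and some of them are also made by pluripotent cells. Retinoic acid and hedgehog signalling give the differentiating cells a spinal, ventral identity.

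Levels are given in FPKM (fragments scaled to transcript length and to the number of mapped fragments), which corrects for gene length and allows levels of different genes to be compared. With 1 library per condition there was no replicate spread and no test, so a difference compares libraries and not conditions. A gene was counted as higher or lower when its log2 ratio, computed after adding 0.1 FPKM to both values, reached 1 in size (2-fold). Ratios were counted only where at least 1 of the 2 libraries had 0.1 FPKM. Folds given beside a pair of values are the plain ratio of those values. In bulk RNA, fewer cells of a type and less RNA per cell cannot be told apart. The only pair of libraries of like genotype and stage, E14 and CJ7 ESCs, gives a rough scale for differences between libraries of different line and batch: 2 of the 8 members that passed the minimum were at least 2-fold higher in CJ7 (15.7% of all genes) and 1 was at least 2-fold lower (14.7% of all genes). The higher ones were Zic1 and Fabp7, both of them inside 2-fold with a pseudocount of 1 (log2 ratios 0.55 and 0.34), and the lower one was Sox21. By label and column name the CJ7 library belongs to another sequencing batch than the E14 library, so line and batch cannot be told apart in this pair.

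Sox3 is a SoxB1 factor of proliferating neural progenitors, encoded by a gene at X:58144545-58146605 (NCBI build 37, as for all positions from the table). Its level was 3.14 FPKM in E14 ESCs, 3.13 in CJ7 ESCs, 0.494 in Suz12delta ESCs and 4.61 in Eednull ESCs, and at day 5 it was 17.4 in E14, 8.91 in Suz12GT, 0.977 in Suz12delta and 0.845 in Eednull. Suz12delta and Eednull at day 5 thus lay below every E14, CJ7 and Suz12GT library, and Suz12GT lay between them and E14. The order of the ESC levels did not carry over to day 5, since Eednull was the highest as ESCs and the lowest at day 5.

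Sox11, a SoxC factor that acts as progenitors become neurons, lies at 12:28025562-28027574. Its level was 4.50 FPKM in E14 ESCs, 2.67 in CJ7 ESCs, 0.829 in Suz12delta ESCs and 2.53 in Eednull ESCs, and 18.9, 21.5, 10.4 and 8.04 FPKM at day 5 in E14, Suz12GT, Suz12delta and Eednull. All 4 day 5 levels were above all 4 ESC levels, a separation by stage that Sox3 lacked.

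Sox21, a SoxB2 factor that counteracts SoxB1 proteins, is listed at 14:118632454-118660421. GENCODE places the gene at 118632454-118636252 on the minus strand, and the rest of the listed span belongs to the overlapping plus-strand noncoding gene Gm4675. Whether the counting used strand is not given in the sources used here, so reads of the overlap cannot be told apart. Sox21 stood at 4.31 FPKM in E14 ESCs, 1.27 in CJ7 ESCs, 0.992 in Suz12delta ESCs and 2.41 in Eednull ESCs, and at 5.60, 8.01, 0.808 and 0.810 FPKM at day 5 in E14, Suz12GT, Suz12delta and Eednull. The 3 libraries above 4 FPKM were those of E14 at both stages and Suz12GT, and the wild-type ESC lines differed 3.40-fold from each other.

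Nes encodes nestin, an intermediate filament protein of neural progenitors that other immature cells also make, and lies at 3:87775000-87784373. It was at 6.99 FPKM in E14 ESCs, 6.44 in CJ7 ESCs, 8.41 in Suz12delta ESCs and 9.16 in Eednull ESCs, and at 24.8, 24.3, 14.7 and 9.21 FPKM at day 5 in the order used above. Nes varied least of the 9 genes, 3.85-fold from lowest to highest library, and its day 5 level in Eednull was barely above the ESC levels.

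Fabp7 encodes a fatty acid binding protein of radial glia, the elongated progenitors that span the neural tube, and lies at 10:57504687-57508256. It was at 0.196 FPKM in E14 ESCs, 0.512 in CJ7 ESCs, 0.122 in Suz12delta ESCs and 0.444 in Eednull ESCs, and at 27.3 FPKM in E14, 66.7 in Suz12GT, 0.345 in Suz12delta and 0.331 in Eednull at day 5. Fabp7 therefore split the libraries most sharply of the 9 genes, 546-fold from lowest to highest, with only the E14 and Suz12GT day 5 libraries above 1 FPKM. Among all genes above 0 in a library, Fabp7 in Suz12GT at day 5 was higher than 95.9% of them, and in E14 at day 5 higher than 86.7%.

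The 4 Zic genes lie as 2 neighbouring pairs, Zic2 with Zic5 and Zic1 with Zic4. Zic2 (14:122874604-122879074) was at 20.1 FPKM in E14 ESCs, 23.0 in CJ7 ESCs, 1.79 in Suz12delta ESCs and 13.5 in Eednull ESCs, and at 0.433, 0.945, 1.61 and 2.41 FPKM at day 5 in E14, Suz12GT, Suz12delta and Eednull. Zic5 (14:122856017-122864899) was at 6.64 FPKM in E14 ESCs, 7.60 in CJ7 ESCs, 0.695 in Suz12delta ESCs and 4.20 in Eednull ESCs, and at 0.0635, 0.187, 0.278 and 0.405 FPKM at day 5 in the same order. In E14, CJ7 and Eednull ESCs both genes were above every day 5 library, so there the levels go against the name of neural progenitor gene. In Suz12delta, Zic2 was at similar levels in ESCs and at day 5 (1.79 and 1.61 FPKM). Zic2 and Zic5 had the same order at day 5, E14 lowest, then Suz12GT, Suz12delta and Eednull.

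Zic1 (9:91252896-91260648), a factor of the dorsal spinal cord and cerebellum, was at 0.0923 FPKM in E14 ESCs, 0.599 in CJ7 ESCs, 0.508 in Suz12delta ESCs and 1.75 in Eednull ESCs, and at 0.203, 3.54, 6.67 and 6.69 FPKM at day 5 in E14, Suz12GT, Suz12delta and Eednull. Zic4 (9:91263810-91284186), whose loss together with Zic1 is known from cerebellar malformation, was at 0.0234 FPKM in E14 ESCs, 0.0943 in CJ7 ESCs, 0.0974 in Suz12delta ESCs and 0.0584 in Eednull ESCs, and at 0.0396, 0.269, 0.581 and 0.588 FPKM at day 5. For both genes the 3 mutant day 5 libraries were above every other library, and the E14 libraries of both stages were the lowest of their stage. Zic4 passed 0.1 FPKM only in those 3 libraries, which is close to the lower end of the table, where a value can rest on few fragments.

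**Figure D1:**
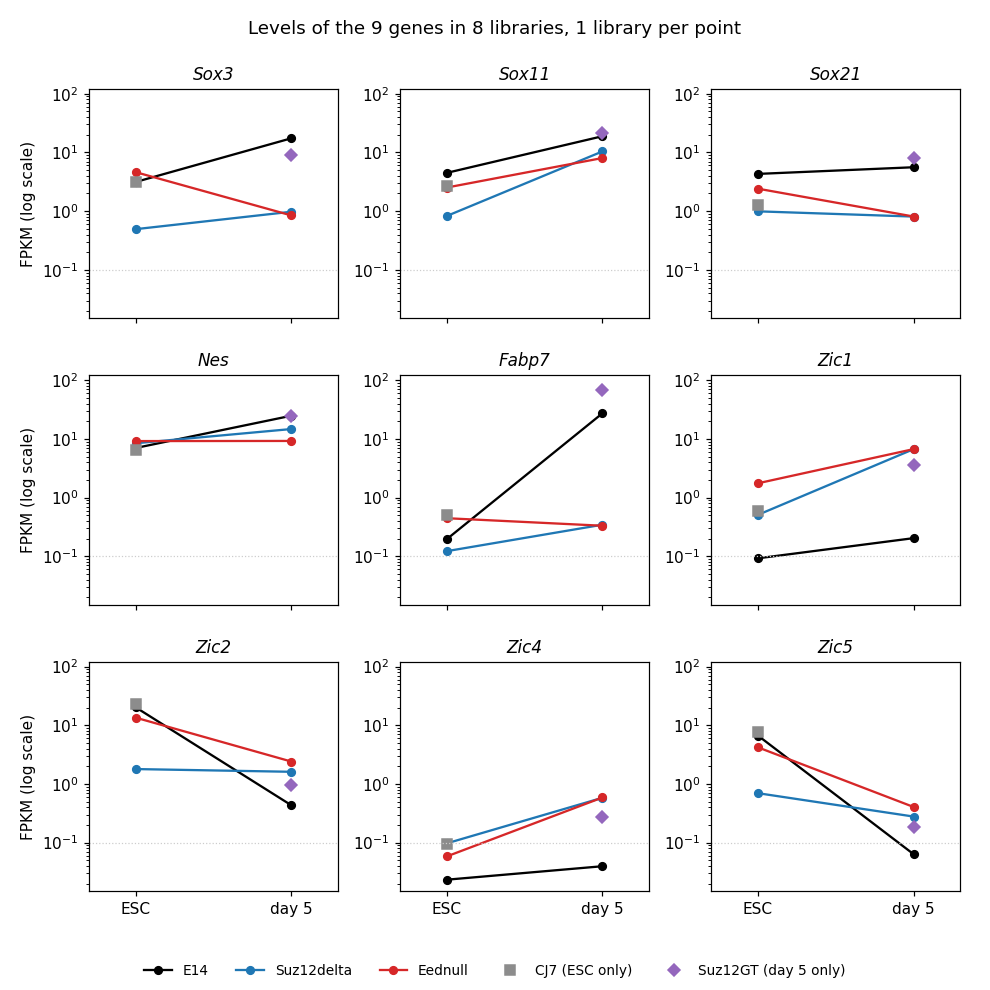
FPKM on a log axis for each of the 9 genes in ESCs and at day 5. Lines join the 2 stages of E14 (black), Suz12delta (blue) and Eednull (red), the grey square is CJ7, the purple diamond is Suz12GT, every point is 1 library, and the dotted line marks 0.1 FPKM. Fabp7 goes from 0.196 to 27.3 FPKM in E14 and stays under 0.5 FPKM in Suz12delta and Eednull, while Zic2 and Zic5 go down most steeply in E14.

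Promoter windows were at hand for 7 of the 9 members, as the 250 bases before the RefSeq transcription start (GRCm38.p6). Polycomb complexes are known to gather at promoters rich in CpG dinucleotides, so CpG content was counted. The windows held 17 CpGs for Sox11, 17 for Sox21, 15 for Nes, 4 for Fabp7, 27 for Zic1, 4 for Zic4 and 11 for Zic5, against a median of 6 (quartiles 2 and 16) over 32841 windows of mouse genes. Some windows overlap exons annotated by GENCODE. The Zic4 window had 0 bases outside exons, all of them of Zic4 itself. In the Sox21 window the longest stretch outside exons of Gm4675 was 120 bases, with 4 of the 17 CpGs. The genes that follow show the range among the members. The Zic1 window held more CpGs than 91.4% of all windows, that of Sox11 more than 76.5% and that of Zic5 more than 64.4%. Fabp7, which had the widest range of levels, had a window below the median but inside the quartiles, with more CpGs than 37.8% of all windows. Each sequence is the part of the window outside annotated exons, 5′ to 3′ on the strand of the gene, with the CpGs in capitals.
Zic1, minus strand of chr9:91365811-91366018: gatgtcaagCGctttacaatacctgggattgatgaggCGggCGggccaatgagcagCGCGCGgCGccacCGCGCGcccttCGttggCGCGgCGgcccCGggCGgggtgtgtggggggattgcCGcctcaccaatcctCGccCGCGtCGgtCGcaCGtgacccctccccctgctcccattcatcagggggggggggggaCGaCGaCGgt
Sox11, minus strand of chr12:27342719-27342968: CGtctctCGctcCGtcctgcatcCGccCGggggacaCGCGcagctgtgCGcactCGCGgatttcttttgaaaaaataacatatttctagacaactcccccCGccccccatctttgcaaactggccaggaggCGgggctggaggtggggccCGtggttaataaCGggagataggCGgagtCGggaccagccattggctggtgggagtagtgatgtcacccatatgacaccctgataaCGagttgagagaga
Zic5, minus strand of chr14:122465678-122465908: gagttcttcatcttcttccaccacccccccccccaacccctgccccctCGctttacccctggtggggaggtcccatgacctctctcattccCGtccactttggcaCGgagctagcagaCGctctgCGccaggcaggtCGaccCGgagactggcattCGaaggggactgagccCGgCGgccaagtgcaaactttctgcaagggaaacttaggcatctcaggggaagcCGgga
Fabp7, plus strand of chr10:57784673-57784880: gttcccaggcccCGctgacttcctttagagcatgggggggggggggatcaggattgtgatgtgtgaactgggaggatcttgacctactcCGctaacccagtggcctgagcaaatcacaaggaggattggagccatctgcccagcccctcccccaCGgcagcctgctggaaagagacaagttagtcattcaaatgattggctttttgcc

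These stretches hold 26, 17, 11 and 3 CpGs. The whole windows were also searched on both strands for 7 short motifs, none of which contains another. CCAAT was found in Sox11, Fabp7 and Zic1 (33.9% of all windows), GGGCGG in Sox11, Nes and Zic1 (32.7%) and AGGTCA in Fabp7 and Zic5 (14% of all windows). TATAAA (12.4% of windows), ATTTGCAT (1.6%), AACAAAG (5.03%) and GACCACCCA (0.225%) were found in none of the 7 windows. These are matches of letters only, in 1 window for each gene.

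In the E14 line, Sox3, Sox11, Nes and Fabp7 were higher at day 5 than in ESCs, and Zic2 and Zic5 were lower. Of the 8 members that passed the minimum, 4 were at least 2-fold higher at day 5, where 18.3% of all genes were, and 2 were at least 2-fold lower, where 25.8% of all genes were. The 4 higher genes were Fabp7 (139-fold), Sox3 (5.55-fold), Sox11 (4.20-fold) and Nes (3.54-fold). The 2 lower genes were Zic5 (105-fold) and Zic2 (46.5-fold). Sox21 (log2 ratio 0.37) and Zic1 (0.66) were within 2-fold (Zic1 reached 1.06 with a pseudocount of 0.01), and Zic4 was under the minimum at both stages. The median log2 ratio of the members was 1.23, against -0.20 for all genes.

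The wider list of 13 neural progenitor genes outside the 9 members, of which 12 were found by symbol, went the same way, with 8 higher and 1 lower and a median log2 ratio of 2.0. Among them Hes5, a Notch target that keeps progenitors undifferentiated, was at 0.919 FPKM in E14 ESCs and 43.2 at day 5, and the POU factor gene Pou3f2 was at 0.0176 and 9.26 FPKM. Sox2, the SoxB1 gene that ESCs and neural progenitors share, was the lower one in E14, at 67.1 and 20.7 FPKM. Other lists moved over the same interval, and their part in the members' differences was not tested. All 8 pluripotency genes were at least 2-fold lower at day 5 (summed level 1190 FPKM in ESCs and 1.29 at day 5, where 2 were at 0), as were all 12 fibroblast genes (125.8 and 6.40 FPKM, with 2 at 0 at day 5) and 6 of the 7 dorsal neural tube and neural crest genes that passed the minimum. Of the 8 neuronal genes that passed, 7 were at least 2-fold higher (summed level 87.9 FPKM in ESCs and 416.6 at day 5).

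In Suz12delta, Sox11 and Zic1 differed most between the stages, and Sox3 and Nes differed by less than 2-fold. Of the 9 members 4 were at least 2-fold higher at day 5 than in ESCs (26.9% of all genes) and 1 was at least 2-fold lower (12.6% of all genes). After scaling each library to its 75th percentile the background split became 17.7% higher and 17.2% lower. The higher genes were Zic1 (13.1-fold), Sox11 (12.6-fold), Zic4 (5.97-fold) and Fabp7, which sat at the threshold with its higher value at 0.345 FPKM (log2 ratio 0.75 after scaling). The lower one was Zic5 (2.50-fold). With a pseudocount of 1 the differences of Fabp7, Zic4 and Zic5 fell inside 2-fold (log2 ratios 0.26, 0.53 and -0.41). The Suz12delta ESC library, the base of these ratios, was the lowest ESC library for Sox3, Sox11, Sox21, Fabp7, Zic2 and Zic5. Over the same interval 7 of 8 endoderm genes (median log2 ratio 3.45, summed level 5.79 and 50.3 FPKM) and 4 of 5 endothelial genes (5.23 and 14.2 FPKM) were at least 2-fold higher, all 8 pluripotency genes were lower (508.5 and 20.0 FPKM), and the fibroblast genes summed to 876.1 and 138.9 FPKM, with 5 of 12 at least 2-fold lower. At day 5 no gene of these 4 lists was at 0, and their part in the members' differences was not tested.

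In Eednull 3 of the 9 members were at least 2-fold higher at day 5 than in ESCs (18.4% of all genes) and 4 were at least 2-fold lower (24.8% of all genes). Sox11 (3.18-fold), Zic1 (3.82-fold) and Zic4 (10.1-fold) were higher. Sox3 (5.46-fold), Sox21 (2.98-fold), Zic2 (5.59-fold) and Zic5 (10.4-fold) were lower. With a pseudocount of 1, Sox21 (-0.91) and Zic4 (0.59) fell inside 2-fold. The Eednull ESC library belongs by name to the batch of CJ7, and its day 5 library to the numbering of the other lines, so batch and stage cannot be told apart here. All 8 pluripotency genes were at least 2-fold lower at day 5 (962 FPKM summed in ESCs and 8.58 at day 5, where 1 was at 0), 4 of the 8 neuronal genes that passed the minimum were lower and 2 higher, and of the 8 endoderm genes 4 were higher and 2 lower. The fibroblast genes summed to 341.2 FPKM in ESCs and 73.5 at day 5, with 2 of 12 at least 2-fold higher and 5 lower. The part of these lists in the members' differences was not tested.

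Set side by side, the 3 lines gave log2 ratios for Sox3 of 2.43 in E14, 0.86 in Suz12delta and -2.32 in Eednull, and for Fabp7 of 6.53, 1.0 and -0.34. For Sox11 they gave 2.05, 3.50 and 1.63, so that Sox11 was at least 2-fold higher at day 5 in all 3 lines. For Zic2 the ratios were -5.25, -0.15 and -2.44, and for Zic1 they were 0.66, 3.48 and 1.87. Zic5 was at least 2-fold lower in all 3 lines, at -5.37, -1.07 and -3.09, but its Suz12delta ratio was -0.41 with a pseudocount of 1. The share of all genes that pass 2-fold in all 3 lines was not computed, so nothing is read from this about the members.

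At day 5, most progenitor genes were within 2-fold between Suz12GT and E14, while Zic1, Zic4 and Fabp7 were higher in Suz12GT. Of the 9 members 3 were at least 2-fold higher in Suz12GT than in E14 (16.8% of all genes), namely Zic1 (17.4-fold), Zic4 (6.77-fold) and Fabp7 (2.44-fold), and 0 were at least 2-fold lower (4.40% of all genes). Zic2 (log2 ratio 0.97) and Sox3 (-0.96) lay just inside the 2-fold limits, and Sox3 passed it at -1.03 after 75th percentile scaling, as Zic2 (1.11) and Zic5 (1.42) did with a pseudocount of 0.01. Zic4 fell to 0.29 with a pseudocount of 1. Nes (-0.03), Sox11 (0.19) and Sox21 (0.51) were closer to E14. The median log2 ratio of the members was 0.81, against 0.13 for all genes.

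In Suz12delta at day 5, 4 of the 9 members were at least 2-fold higher than in E14 at day 5 (26.6% of all genes) and 3 were at least 2-fold lower (9.52% of all genes). All 4 higher genes were Zic genes, with Zic1 32.8-fold, Zic4 14.7-fold, Zic5 4.38-fold and Zic2 3.72-fold higher. The lower genes were Fabp7 (79.2-fold), Sox3 (17.8-fold) and Sox21 (6.93-fold). Sox11 (log2 ratio -0.85) and Nes (-0.75) were lower by less than 2-fold, with Sox11 at the limit after 75th percentile scaling. With a pseudocount of 1, Zic2 (0.86), Zic4 (0.60) and Zic5 (0.27) fell inside 2-fold.

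In Eednull at day 5 the same 4 Zic genes were at least 2-fold higher than in E14 (21.6% of all genes), and all 5 other members were at least 2-fold lower (11.3% of all genes). Zic1 was 32.9-fold, Zic4 14.8-fold, Zic5 6.37-fold and Zic2 5.55-fold higher. Fabp7 was 82.5-fold, Sox3 20.6-fold, Sox21 6.91-fold, Nes 2.69-fold and Sox11 2.35-fold lower. With a pseudocount of 1, Zic4 (0.61) and Zic5 (0.40) fell inside 2-fold. The 3 day 5 comparisons share the E14 library, so an unusual value there would enter all of them.

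**Figure D2:**
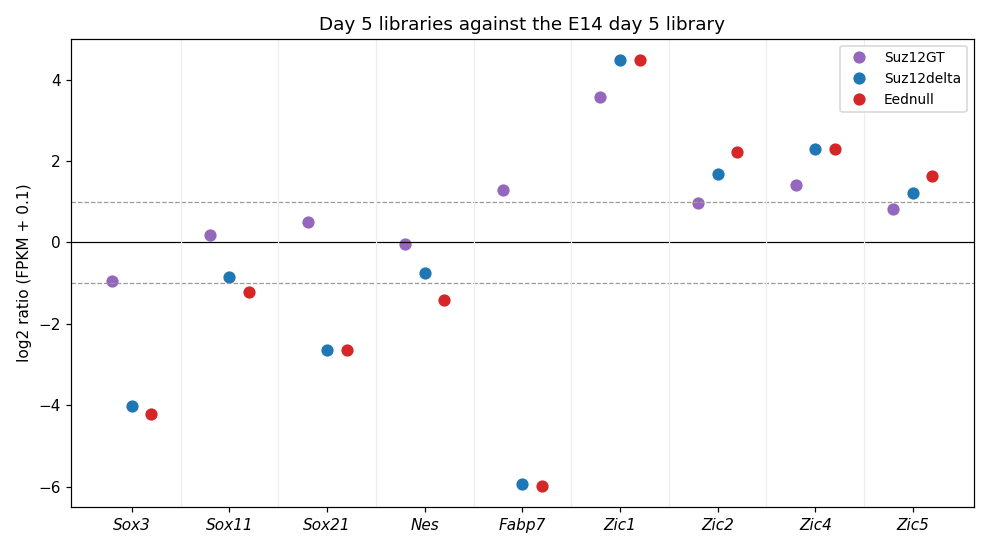
Log2 ratio of FPKM + 0.1 at day 5 to the E14 day 5 library for each gene, 1 point for each of Suz12GT (purple), Suz12delta (blue) and Eednull (red), with dashed lines at 2-fold. All 4 Zic genes are above 0 in the 3 lines, while Sox3, Sox21 and Fabp7 are below -2 in Suz12delta and Eednull, with Fabp7 at -5.95 and -5.99.

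Other lists moved with these levels at day 5, and their part in the differences was not tested. Of 12 other neural progenitor genes found, 11 were at least 2-fold lower in Suz12delta than in E14 (9.52% of all genes) and 1 was higher (26.6%). In Eednull 9 were lower (11.3%) and 1 was higher (21.6%), and in Suz12GT 2 were lower (4.40%) and 0 higher (16.8%). The median log2 ratios were -1.83 in Suz12delta, -1.77 in Eednull and -0.08 in Suz12GT. The higher gene in Suz12delta and Eednull was Slc1a3, at 8.82 and 8.28 FPKM against 3.63 in E14. Hes5 was at 43.2 FPKM in E14, 7.55 in Suz12GT, 0.163 in Suz12delta and 0.186 in Eednull. Pax6, a paired-box gene of spinal progenitors, was at 22.0 FPKM in E14 at day 5, 8.18 in Suz12GT, 7.24 in Suz12delta and 9.35 in Eednull, so that in Suz12GT both Hes5 and Pax6 were lower while Nes and Sox11 were not. Sox4, the SoxC paralogue of Sox11, was at 52.9, 50.1, 41.2 and 32.5 FPKM at day 5, so that, like Sox11, it differed by less than 3-fold among the 4 lines.

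The 9 neuronal markers found of 10 listed summed to 416.6 FPKM in E14 at day 5, 775.3 in Suz12GT, 10.7 in Suz12delta and 9.90 in Eednull, with 1 of them, Tubb3, listed at 0 in every library, which can be a failed estimate. The 9 dorsal neural tube and neural crest genes found of 10 listed summed to 0.621, 1.48, 13.0 and 9.62 FPKM in the same order, with 2 at 0 in E14 and none in the mutant lines. Of those that passed the minimum, 3 of 6 were at least 2-fold higher than E14 in Suz12GT, 6 of 9 in Suz12delta and 5 of 7 in Eednull. Pax3, a factor of the dorsal neural tube and neural crest, was listed at 0 in E14 and was at 0.0882, 0.625 and 1.21 FPKM in the mutant lines. Foxd3 (log2 ratios -0.47, -0.04 and -0.23) and Gdf7 (0.45, 0.22 and 0.28) of this list were within 2-fold of E14 in the same lines. The highest levels of the list were those of Msx1, Msx2 and Snai2, at 4.56, 1.95 and 4.29 FPKM in Suz12delta and 1.31, 1.88 and 4.53 in Eednull. Snai2 was also at 4.53 FPKM in Suz12delta ESCs. Genes of other tissues were higher too: all 8 endoderm genes, all 5 endothelial genes and all 12 fibroblast genes were at least 2-fold higher in Suz12delta and in Eednull than in E14, as were 8, 4 and 11 of them in Suz12GT. The pluripotency genes, low at day 5 in every line, were at least 2-fold higher than in E14 in 8 of 8 cases in Suz12GT, 8 of 8 in Suz12delta and 5 of the 7 that passed the minimum in Eednull, with sums of 1.29 FPKM in E14, 11.9 in Suz12GT, 20.0 in Suz12delta and 8.58 in Eednull. Of these genes 2 were at 0 in E14 and 1 in Eednull. Zic2 and Zic5, the members whose own highest levels were in wild-type ESCs, were higher than in E14 in the same 3 libraries, at log2 ratios of 0.97 and 0.81 in Suz12GT. The fibroblast genes summed to 6.40 FPKM in E14, 25.6 in Suz12GT, 138.9 in Suz12delta and 73.5 in Eednull, with 2 at 0 in E14 and none in the mutant lines.

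Among ESCs, more members differed from E14 in Suz12delta than in Eednull. Of the 8 members that passed the minimum, 1 was at least 2-fold higher in Suz12delta than in E14 ESCs (18.0% of all genes) and 5 were at least 2-fold lower (22.8% of all genes). After scaling to the 75th percentile the background split became 23.5% higher and 14% lower. The lower genes were Zic2 (11.2-fold), Zic5 (9.55-fold), Sox3 (6.37-fold), Sox11 (5.42-fold) and Sox21 (4.34-fold), and Zic1 was the higher one (5.51-fold, log2 ratio 0.47 with a pseudocount of 1). Against CJ7 ESCs, 0 members were at least 2-fold higher in Suz12delta (21.1% of all genes) and 5 were at least 2-fold lower (24.0% of all genes). Those 5 were Zic2, Zic5, Sox3, Sox11 and Fabp7, with Sox21 at a log2 ratio of -0.32 and Zic1 at -0.20, so the Sox21, Zic1 and Fabp7 calls depended on which wild-type line was used.

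The Suz12delta ESC library also had higher levels of fibroblast genes and lower levels of pluripotency genes than the other ESC libraries, and their part in the members' levels was not tested. It was the only Suz12delta ESC library, so no value can be given without it. The 12 fibroblast genes, none at 0, summed to 876.1 FPKM in Suz12delta ESCs against 125.8 in E14, 138.0 in CJ7 and 341.2 in Eednull, and the 8 pluripotency genes, none at 0, summed to 508.5 against 1190, 1010 and 962 FPKM. All genes together summed to 389165 FPKM in Suz12delta ESCs, against 797748, 718852 and 563239 in the same order. The list sums were not scaled to these totals. Sox2 was at 11.9 FPKM in Suz12delta ESCs and at 67.1, 78.0 and 58.7 in E14, CJ7 and Eednull. Nes, which other cultured cells can also make, was 1.2-fold higher in Suz12delta than in E14 ESCs.

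In Eednull ESCs 1 of the 8 members that passed was at least 2-fold higher than in E14 ESCs (22.4% of all genes) and 0 were at least 2-fold lower (11.9% of all genes). The higher gene was Zic1, at 19.0-fold, and Fabp7 reached a log2 ratio of 1.14 with a pseudocount of 0.01. Against CJ7, its batch partner, 1 member, again Zic1 at 2.92-fold, was at least 2-fold higher (20.5% of all genes) and 0 were at least 2-fold lower (10.7% of all genes). CJ7 itself was 6.49-fold above E14 for Zic1, from a value of 0.0923 FPKM in E14 that was under the minimum. In Eednull ESCs all 7 endoderm genes that passed the minimum were at least 2-fold higher than in E14 ESCs (summed level 25.2 FPKM against 1.17, with none at 0 in Eednull and 2 at 0 in E14), as were 6 of 12 fibroblast genes (341.2 FPKM against 125.8, none at 0), and their part in the Zic1 difference was not tested.

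**Figure D3:**
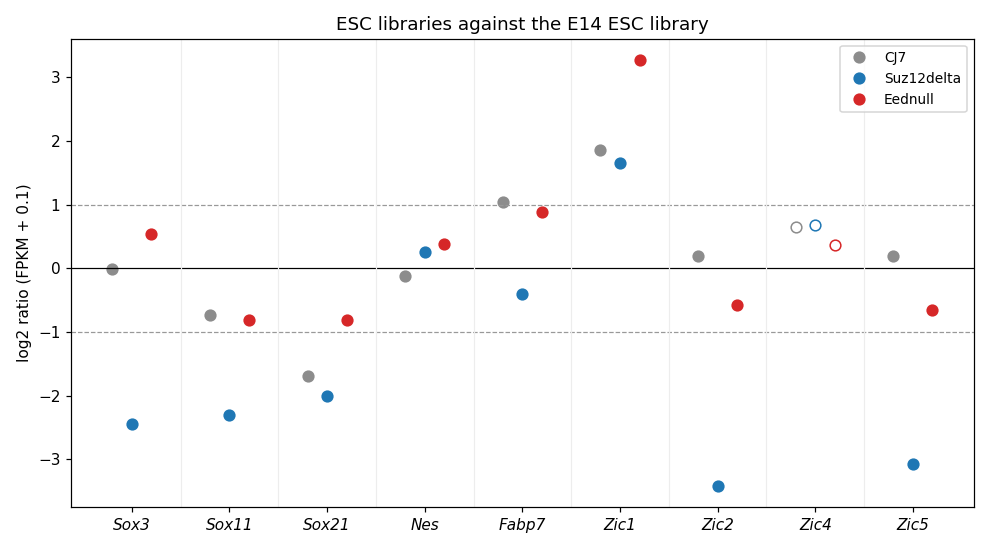
Log2 ratio of FPKM + 0.1 in ESCs to the E14 ESC library for each gene, 1 point for each of CJ7 (grey), Suz12delta (blue) and Eednull (red), with dashed lines at 2-fold and open points for Zic4, which was under 0.1 FPKM in all 4 ESC libraries. Suz12delta lies at -3.42 for Zic2 and -3.08 for Zic5, while Eednull is within 2-fold of E14 for these genes.

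Zic2 and Zic5 kept a near constant proportion within each stage, and Zic1 and Zic4 did so in the mutant day 5 libraries. Zic2 and Zic5, which point away from each other with 9704 bases between them, had a ratio of Zic2 to Zic5 of 3.03 in E14 ESCs, 3.03 in CJ7, 2.58 in Suz12delta and 3.21 in Eednull. At day 5 the ratio was 6.82 in E14, 5.06 in Suz12GT, 5.79 in Suz12delta and 5.94 in Eednull, so the 2 stages did not overlap although the levels varied 53.2-fold for Zic2 and 120-fold for Zic5. Over the 8 libraries, which share lines and stages and are not independent, their log2 levels had a Pearson correlation of 0.989.

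Zic1 and Zic4 are listed with 3161 bases between them, and GENCODE has Zic4 transcripts that start at 91257251 on the plus strand, inside Zic1 on the minus strand, so part of their reads cannot be told apart without strand. The ratio of Zic1 to Zic4 was 3.95 in E14 ESCs, 6.35 in CJ7, 5.22 in Suz12delta and 30.0 in Eednull, and 5.13, 13.2, 11.5 and 11.4 at day 5 in E14, Suz12GT, Suz12delta and Eednull. The 3 mutant day 5 libraries lay close together, and the highest ratio, in Eednull ESCs, rests on a Zic4 level of 0.0584 FPKM. Members of the Zic family have similar zinc-finger coding sequence, and the authors' correction for reads with several matches decides how such reads are divided.

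**Figure D4:**
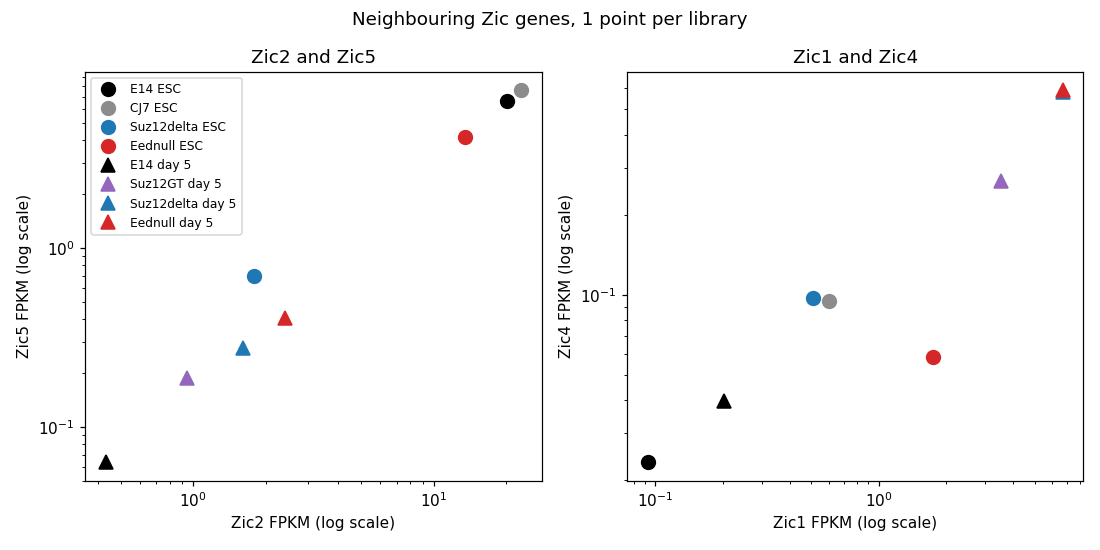
FPKM of Zic2 against Zic5 (left) and of Zic1 against Zic4 (right) on log axes, 1 point per library, with circles for ESCs, triangles for day 5 and colours for the lines. Zic2 and Zic5 go down together from CJ7 and E14 ESCs to E14 at day 5, and Zic1 and Zic4 are highest in Suz12delta and Eednull at day 5, where the points lie on top of each other.

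The balance between members shifted as well. The 4 Zic genes summed to 26.9 FPKM in E14 ESCs, 31.3 in CJ7, 3.09 in Suz12delta and 19.5 in Eednull, and to 0.740, 4.94, 9.14 and 10.1 FPKM at day 5. Zic2 made up 57.9 to 74.9% of the sum in the ESC libraries. At day 5 Zic2 was still the largest part in E14 (58.6%), whereas Zic1 was the largest part in Suz12GT (71.6%), Suz12delta (73.0%) and Eednull (66.3%). The 3 Sox genes summed to 11.9, 7.06, 2.31 and 9.55 FPKM in the ESC libraries and to 41.9, 38.5, 12.2 and 9.70 at day 5. Sox11 supplied 85.4% of that day 5 sum in Suz12delta and 82.9% in Eednull, against 45.1% in E14 and 56.0% in Suz12GT.

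**Figure D5:**
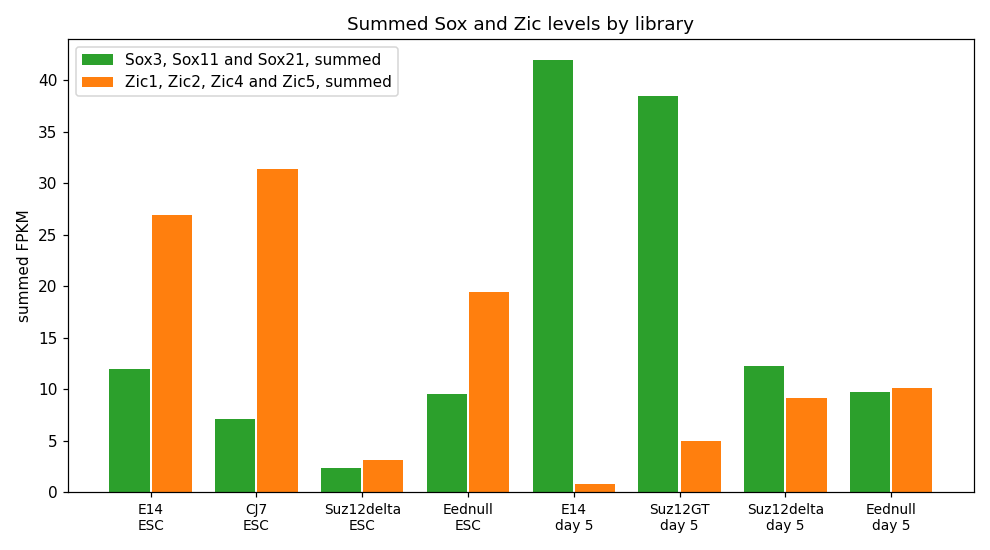
Summed FPKM of the 3 Sox members (green) and the 4 Zic members (orange) in each of the 8 libraries, linear axis from 0. The Sox sum is 41.9 and the Zic sum 0.740 FPKM in E14 at day 5, and in Eednull at day 5 they are 9.70 and 10.1.

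The genes with the most similar course were sought among 6292 genes that reached 1 FPKM in some library and varied by an SD of at least 1 in log2 level, by Pearson correlation over the 8 libraries. All genes named this way, Sall4 and Kif5c among them, were chosen for likeness over these same libraries. Their similar courses are not separate results. For Zic5 they were Gm14401 (0.990), Sall4 (0.990), a pluripotency factor gene, and Stat4 (0.989), and for Zic2 SNORA51 (0.989), Zic5 and Stat4 (0.983). Sall4 was at 48.0 FPKM in E14 ESCs, 14.5 in Suz12delta ESCs, 5.25 in E14 at day 5 and 9.67 in Eednull at day 5. For Fabp7 they were Gdap1 (0.995), Kif5c (0.994), a kinesin gene of neurons, and Napb (0.994), and Kif5c was at 50.5 and 76.1 FPKM at day 5 in E14 and Suz12GT and at or below 4.89 in the other libraries.

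For Zic4 the most similar genes were Isx (0.983), Aldh1a2 (0.980), which encodes a retinoic acid synthesizing enzyme, and Tbx2 (0.980), and for Zic1 they were Tmem56 (0.983), Cdh5 (0.977), which encodes the cadherin of endothelial cells, and 1010001N08Rik (0.971). Aldh1a2 was at 0.935 FPKM in E14 at day 5, 8.29 in Suz12GT, 29.1 in Suz12delta and 34.3 in Eednull. Aldh1a2 was chosen for its likeness to Zic4 over these same libraries, so its similar course is not a separate result.

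For Nes they were Hey2 (0.983), a Notch target, Arhgap36 (0.982) and Ret (0.981), a receptor gene of motor neurons. For Sox3 they were Cdkn1c (0.971), which encodes an inhibitor of cell division, Maneal (0.955) and Tmem145 (0.955), for Sox11 Bcl7a (0.991), Zfp41 (0.989) and Zik1 (0.989), and for Sox21 Trim36 (0.983), Insm1 (0.974), a factor of newborn neurons, and Galnt9 (0.961). The number of genes with a correlation of 0.95 or more ran from 4 for Sox21 to 163 for Fabp7. It was 122 for Zic5, 71 for Nes, 65 for Sox11 and 59 for Zic2, and 24 for Zic4, 11 for Zic1 and 7 for Sox3. For Fabp7, Zic5, Nes, Sox11 and Zic2 the 3 named are thus few among many with a like course.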

How the data were processed

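RNA was sequenced from 8 libraries, 1 for each line and stage. Per the paper's methods and the submitters' processing notes, the authors aligned reads with TopHat 1.3.2 and Bowtie 0.12.7 to NCBI build 37 without new junctions and computed the deposited FPKM per gene with Cufflinks 1.2.1 and Cuffdiff, guided by an Ensembl-based annotation, with bias and multi-read correction. FPKM already divides by length and library size. No read counts were used. The smallest values gave no common step (at most 6.78% of low genes shared the commonest ratio to E14 ESCs), so depth, counting intervals and floors are unknown. A value of 0 can be a failed estimate.

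Log2 ratios were computed with a pseudocount of 0.1 over all genes with at least 0.1 FPKM in either library, with no further scaling. Percentages of all genes are the shares of those genes past 2-fold. Genes with 1 or more FPKM numbered 14064 to 15466 per library. FPKM summed over all genes ran from 389165 in Suz12delta ESCs to 797748 in E14 ESCs, and sums over lists and families were not scaled to it. For list symbols on several rows the row with the highest mean was used. Sox1, Map2 and Tfap2a were not found by symbol. Named genes were the 9 members, per member the 3 genes with the highest Pearson correlation, and from the context lists up to 3 genes with the largest ratio per comparison or, for progenitor, Sox and Zic lists, genes described beside a paralogue or partner. Hes5, Pax6, Pou3f2, Sox2, Sox4, Slc1a3, Tubb3, Pax3, Msx1, Msx2, Snai2 and, outside this rule, Foxd3 and Gdf7 were named with their values known. Members and lists were chosen with earlier results of these data known. Promoter windows came from RefSeq (GRCm38.p6) and gene models from GENCODE vM1 (build 37). Calculations ran under SciPy 1.17.1, pandas 2.3.3 and NumPy 2.4.6 in Python 3.11.15, with plots by Matplotlib 3.10.9. The code for ratios was checked on E14 ESC values multiplied by known factors without noise, which says nothing about how reliable the calls are. Alternatives were other pseudocounts and minimums, 75th percentile scaling, CJ7 in place of E14 ESCs, and Spearman correlation.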

Additional observations from a re-analysis of the deposited data

Results flagged for a closer look

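Sox3 went in opposite directions over differentiation in different lines. From ESCs to day 5 its log2 ratio was 2.43 in E14, 0.86 in Suz12delta and -2.32 in Eednull, and with 1 library at each stage the difference between the lines was not tested. Eednull ESCs had the highest Sox3 level of the ESC libraries (4.61 FPKM), and its day 5 library the lowest of all day 5 libraries (0.845 FPKM).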

How the results depend on the processing

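No paired analysis was possible because each condition has 1 library, and no library could be left out of a group. With 75th percentile scaling 74 of 77 ratios of single members kept their call. With a pseudocount of 0.01 this held for 73 of 77, and with a pseudocount of 1 for 63 of 77. With CJ7 as the wild type 13 of 16 ESC ratios kept their call. The minimum does not enter a ratio and only decides which ratios are counted. The calls therefore could not change with it, for the 57 ratios left at 1 FPKM or the 77 without a minimum. A pseudocount of 1 left 2 higher and 0 lower members for Suz12delta day 5 against its ESCs, 1 higher for Suz12delta and 2 higher for Eednull at day 5 against E14, 0 higher and a median of -1.44 for Suz12delta ESCs against E14, and 0 higher for CJ7 against E14 ESCs. A pseudocount of 0.01 gave 5 higher members for Suz12GT at day 5 and 2 higher for Eednull ESCs. A minimum of 1 FPKM left 2 higher, 0 lower and a median of 2.14 over 4 members for Suz12delta day 5 against its ESCs, a median of -1.47 for Eednull day 5 against its ESCs, 2 higher for Suz12delta and 2 higher for Eednull at day 5 against E14, and 0 higher for Suz12delta and for CJ7 ESCs against E14. Scaling gave 1 lower member for Suz12GT at day 5, Sox3 at -1.03, and shifted the median log2 ratio of all genes from 0.43 to 0.06 for Suz12delta day 5 against its ESCs and from -0.28 to 0.07 for Suz12delta ESCs against E14. With CJ7 as the wild-type ESC the Suz12delta count of higher members was 0, its median was -1.52, and Zic1 reversed to -0.20. Fewer members tested is part of the change under the minimum of 1 FPKM, and a larger pseudocount shrinks ratios of low genes by construction. By Spearman correlation, the 3 most similar genes stayed among those of highest rho for Nes in 2 of 3 cases and for no other member. The depth behind each value is unknown, which limits every value below about 1 FPKM.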

Other observations

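Other Sox genes differed among themselves in their courses. Sox9, a factor of glial progenitors and neural crest, was at 0.635 FPKM in E14 ESCs and 9.43 at day 5, and at 7.21, 12.5 and 9.76 FPKM at day 5 in Suz12GT, Suz12delta and Eednull, so it was within 2-fold of E14 in each line where Sox3 was not in 2 of them. Sox5 was listed at 0 in E14 ESCs and was at 1.0, 2.0, 3.80 and 3.13 FPKM at day 5 in E14, Suz12GT, Suz12delta and Eednull. Of the other Sox genes that passed the minimum, 6 of 15 were at least 2-fold higher than in E14 and 2 lower in Suz12delta at day 5 (26.6% and 9.52% of all genes), 4 of 13 were higher and 2 lower in Eednull (21.6% and 11.3% of all genes), and 3 of 11 were higher and 0 lower in Suz12GT (16.8% and 4.40% of all genes), so nothing is read from these counts about the family. These genes were picked with their values known.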
